A study of Homo sapiens with 9 samples.

Results

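Cancer genes of chromosome 17 were followed through the transformation of a mammary epithelial line. The 9 genes were NF1, BRCA1, NCOR1, MAP2K4, RARA, ERBB2, GRB7, RPS6KB1 and PPM1D, known oncogenes and tumour suppressors of both chromosome arms. They were selected by name from the count table because the genes of this chromosome are raised together in one transformed line, M1B26, so the M1B26 values of these and other chromosome 17 genes are a description of that choice, and tests of M1B26 are given only for genes of other chromosomes. All 9 genes passed the filter on low counts, out of 851 tested genes with a position on chromosome 17 and 15717 tested genes in all. Poly-A RNA was sequenced from 9 cultures of MCF10A, a non-transformed human mammary epithelial line, and its derivatives. CT was the parental line without added BMP2, a bone morphogenetic protein, or the cytokine IL6 (n = 3). The culture medium of MCF10A held EGF and insulin. MC26 was unsorted MCF10A transformed by prolonged exposure to BMP2 and IL6 (n = 3). M1B26 came from MCF10A cells sorted for BMPR1B, a receptor of BMP2, treated with the same factors and expanded from 3 soft-agar clones (n = 3). Whether each M1B26 library was a separate clone is not given, so the p-values measure the spread between these cultures.

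Chromosome 17 carries tumour suppressors and oncogenes close to each other, so that a gain of the chromosome or of an arm raises the copies of both kinds at once. In breast tumours the 17q12 segment around ERBB2 and the 17q23 segment around RPS6KB1 and PPM1D are known for focal amplification, whereas NF1, BRCA1, MAP2K4 and NCOR1 are known for loss or inactivating mutation. A gene can follow its chromosome in RNA, or its own regulation can hold it at another level.

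Promoter sequence was taken from RefSeq (GRCh38.p14) and matched by symbol for 8 of the 9 genes. NF1, NCOR1, PPM1D and MAP2K4 are shown because NF1 and NCOR1 had the most similar pattern of any pair of the 9 genes, while the M1B26 libraries of PPM1D and MAP2K4 lay above all others. The latter also held for ERBB2, GRB7 and RPS6KB1, which are not shown. Each sequence is the longest stretch of the 250 bases before the start that overlapped no exon of GENCODE v44, written 5′ to 3′ on the strand of the gene. Capitals mark a GC box (GGGCGG), the box named CCAAT, a GC-rich element known to bind SMADs (GGCGCC) or a cAMP response element (TGACGTCA), found on either strand. The STAT palindrome TTCNNNGAA was also searched and was in none of the stretches shown. The 250-base window of RPS6KB1, not shown, held 1, outside its longest exon-free stretch. The stretches lie at chr17:31094727-31094926 on the plus strand for NF1, chr17:16215555-16215653 on the minus strand for NCOR1, chr17:60599943-60600192 on the plus strand for PPM1D and chr17:12020627-12020828 on the plus strand for MAP2K4.
NF1: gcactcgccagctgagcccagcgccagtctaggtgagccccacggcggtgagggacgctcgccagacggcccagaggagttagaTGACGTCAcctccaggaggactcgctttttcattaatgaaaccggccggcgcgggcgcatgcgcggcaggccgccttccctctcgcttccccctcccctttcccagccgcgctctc
NCOR1: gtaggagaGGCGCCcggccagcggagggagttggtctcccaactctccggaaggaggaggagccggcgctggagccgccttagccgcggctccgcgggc
PPM1D: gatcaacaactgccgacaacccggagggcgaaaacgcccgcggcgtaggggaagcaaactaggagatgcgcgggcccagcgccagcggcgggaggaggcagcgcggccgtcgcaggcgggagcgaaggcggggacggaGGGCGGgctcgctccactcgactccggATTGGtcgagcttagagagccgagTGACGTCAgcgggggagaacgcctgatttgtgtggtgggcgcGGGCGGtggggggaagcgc
MAP2K4: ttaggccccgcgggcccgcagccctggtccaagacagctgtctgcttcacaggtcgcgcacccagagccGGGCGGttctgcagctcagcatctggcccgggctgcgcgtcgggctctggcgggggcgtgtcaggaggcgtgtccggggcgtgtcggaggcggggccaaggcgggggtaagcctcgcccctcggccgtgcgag
The cAMP response element was in the stretches of NF1 and PPM1D and in 1.65% of all 35116 promoter windows of 250 bases. The GC box was in 42.6% of those windows, the CCAAT box in 32%, the SMAD-binding element in 16.4% and the STAT palindrome in 6.57%. A match of letters is a description and not a binding site. A further NCOR1 entry at chr17:16194640-16194889, with 23.6% G and C, held none of these elements. The windows shown for NF1, NCOR1, PPM1D and MAP2K4 held 67.2%, 72.4%, 70.4% and 74% G and C, against a median of 61.6% for chromosome 17 promoters.

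The chromosome gave the reference for all that follows. The median log2 fold change of the 851 genes was 0.00 in MC26 against CT and 0.475 in M1B26 against CT, and genes elsewhere had a median of -0.02 in the latter. In single libraries the median of chromosome 17 relative to the CT mean was 0.46, 0.47 and 0.48 in M1B26, against -0.09 to 0.04 in the CT and MC26 libraries, so the groups did not overlap. The shift was on both arms, with a median of 0.42 on 17p and 0.50 on 17q. It was uneven among genes, with quartiles of 0.13 and 0.76. Total counts per library ran from 21425118 to 80076597. A count table of bulk RNA cannot tell a change in the cells present from a change in RNA per cell. The basal keratin KRT5 stood at 6583, 6262 and 4922 CPM (read counts scaled to a common library size) in CT, MC26 and M1B26, while the fibroblast collagen COL3A1 and the leukocyte genes PTPRC and CD3E had 3, 5 and 0 counts in all 9 libraries. Of 3 leukocyte markers CD14 alone was tested, and its mean was 9.08 CPM in CT and 38.5 CPM in M1B26. The part of CD14 in the results was not tested.

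**Figure D1:**
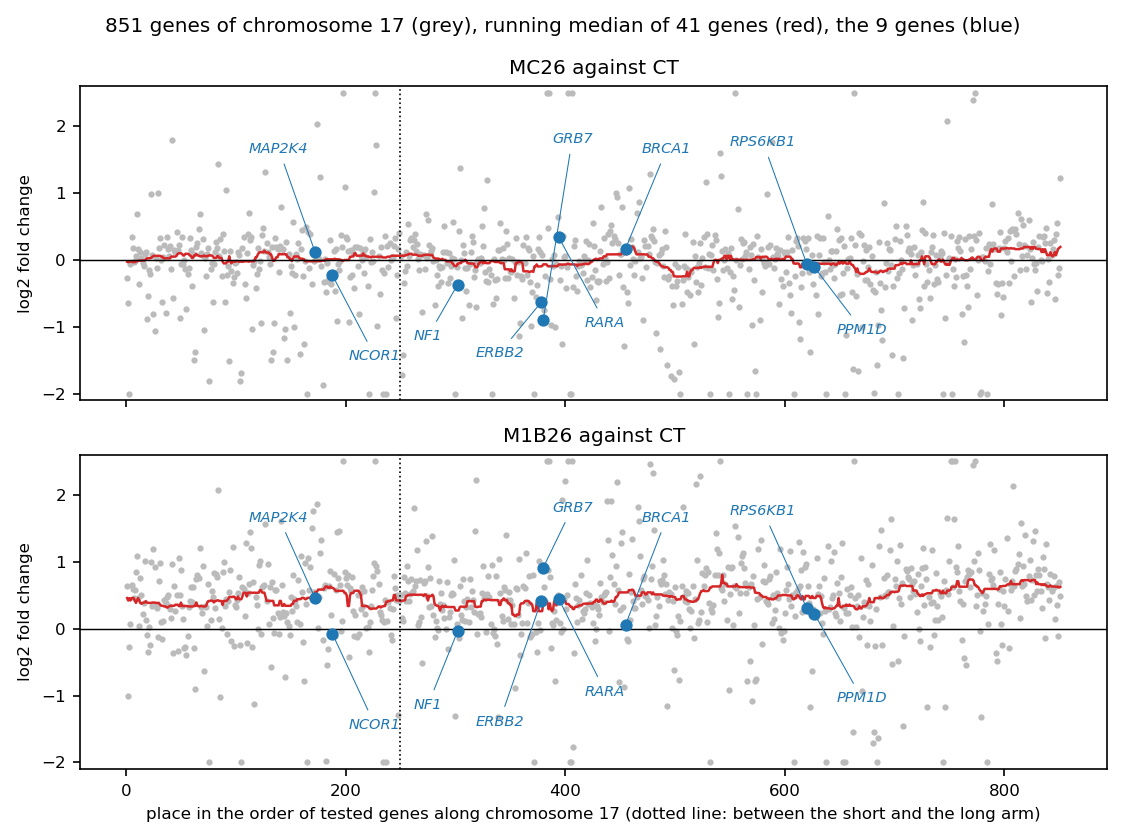
Log2 fold change of the 851 tested genes of chromosome 17 by their place in the order along the chromosome, in MC26 and in M1B26 against CT; grey points beyond the axis are drawn at -2 or 2.5, the red line is the running median of 41 genes, and blue points are the 9 cancer genes. In M1B26 the running median stays above 0 along both arms, and NF1, BRCA1 and NCOR1 lie well below it.

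The question for the 9 genes was which of them followed the shift of their chromosome in M1B26. Against CT, 5 of the 9 passed the threshold as higher and 0 as lower, beside 25.2% of all tested genes called higher and 23.7% called lower. Of the 851 chromosome 17 genes 64.2% were called higher and 6.70% lower. The M1B26 libraries lay wholly above those of CT for 6 of the 9, while the libraries of CT and M1B26 did not overlap in either direction for 59% of all genes. These counts come from the contrast behind the selection, so nothing is read from them. The median log2 fold change of the 9 genes was 0.30, below the chromosome's 0.475. For ERBB2, GRB7, MAP2K4 and RARA the 95% interval of the log2 fold change held the chromosome's median. For NF1, BRCA1, NCOR1, PPM1D and RPS6KB1 it lay below the median, and for 0 genes above it. PPM1D and RPS6KB1 held it without CT replicate 2 or M1B26 replicate 3, and RPS6KB1 also without M1B26 replicate 2. GRB7 did not hold it without M1B26 replicate 1. With no filter on low counts RPS6KB1 held it and GRB7 did not. The number of genes that held it ran from 3 to 6. Among all 851 genes 30.2% had an interval below the median, 42.5% held it and 27.3% lay above it.

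**Figure D2:**
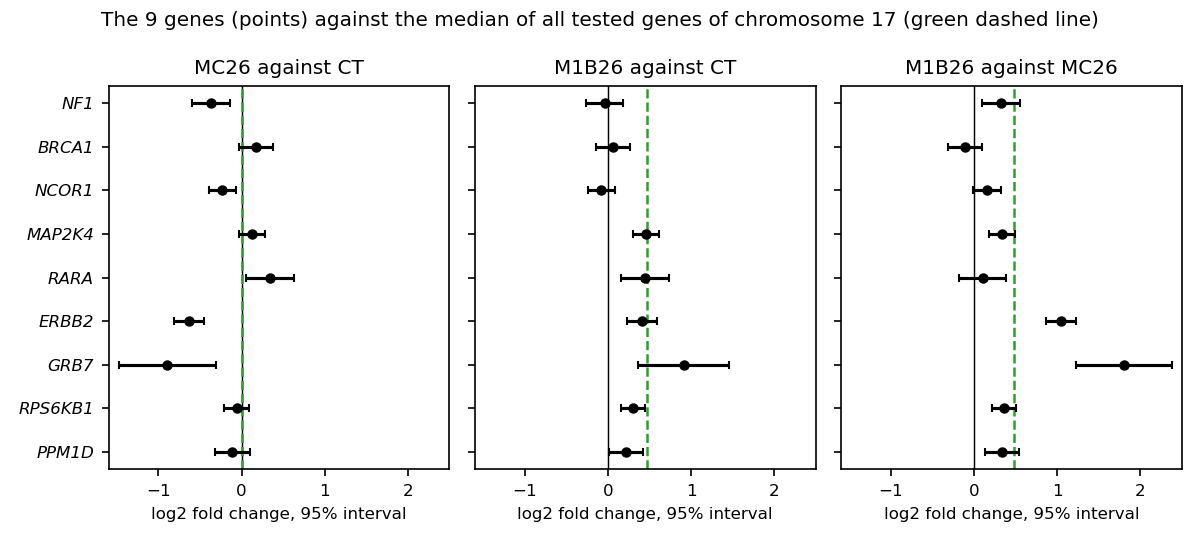
Log2 fold change of each gene with its 95% interval in the 3 comparisons; the green dashed line is the median of the 851 chromosome 17 genes and the black line is 0. In M1B26 against CT the intervals of NF1, BRCA1 and NCOR1 hold 0 and lie below the green line, whereas against MC26 ERBB2 and GRB7 lie above it.

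The tumour suppressors NF1, BRCA1 and NCOR1 stood in M1B26 near their level in the parental cells. NF1 encodes neurofibromin, which switches RAS off. It lies on 17q (GRCh38, chr17:31094927-31382116, plus strand). NF1 measured 101, 122 and 107 CPM in CT, 80.8, 86.5 and 88.8 CPM in MC26, and 109, 91.5 and 121 CPM in M1B26. All 3 MC26 libraries were below those of both other groups, and 1 M1B26 library lay below the CT range while the other two lay within it. In M1B26 against CT the log2 fold change was -0.04 (95% interval -0.27 to 0.19), 0.52 below the median of the chromosome. A share of 16.1% of the other chromosome 17 genes had a lower value.

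BRCA1, a ubiquitin ligase of homologous recombination repair, lies on 17q (chr17:43044295-43170245, minus strand). It measured 49.0, 59.97 and 51.9 CPM in CT, 63.4, 63.2 and 53.98 CPM in MC26, and 52.4, 55.5 and 59.1 CPM in M1B26. The 3 groups overlapped. M1B26 against CT gave a log2 fold change of 0.06 (95% interval -0.15 to 0.26) and M1B26 against MC26 gave -0.11 (-0.32 to 0.09). In the latter comparison 8.24% of the other chromosome 17 genes were lower, which placed BRCA1 at the low end of its chromosome.

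NCOR1, a corepressor of nuclear receptors, lies on 17p (chr17:16029065-16218185, minus strand). It measured 135, 147 and 136 CPM in CT, 116, 122 and 117 CPM in MC26, and 130.4, 119.7 and 145 CPM in M1B26. The MC26 libraries were below those of CT, and the M1B26 libraries overlapped both groups. The log2 fold change of M1B26 against CT was -0.08 (95% interval -0.24 to 0.09), 0.55 below the chromosome's median.

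The suppressor MAP2K4 followed the chromosome. MAP2K4 is a kinase that activates JNK and p38, and lies on 17p (chr17:12020829-12143830, plus strand). It measured 42.8, 47.9 and 41.5 CPM in CT, 47.97, 49.6 and 46.2 CPM in MC26, and 62.2, 56.97 and 62.2 CPM in M1B26. Every M1B26 library was above every other library. In M1B26 against CT its log2 fold change was 0.46 (95% interval 0.30 to 0.62), 0.02 below the median of the chromosome, and against MC26 it was 0.34 (0.18 to 0.50).

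The genes of 17q12 and 17q21 known for amplification or fusion were ERBB2, GRB7 and RARA. ERBB2 encodes the HER2 receptor tyrosine kinase (chr17:39687914-39730426, plus strand). It measured 76.9, 66.7 and 80.9 CPM in CT, 46.0, 46.6 and 52.2 CPM in MC26, and 101.7, 96.5 and 100.2 CPM in M1B26. The 3 groups stood in separate ranges, with MC26 lowest and M1B26 highest. The log2 fold change of M1B26 against CT was 0.41 (95% interval 0.23 to 0.59), 0.07 below the chromosome's median, and against MC26 it was 1.04 (0.86 to 1.22).

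GRB7, an adaptor that binds activated receptor tyrosine kinases, lies next to ERBB2 (chr17:39737927-39747291, plus strand). It measured 7.69, 6.03 and 7.99 CPM in CT, 3.31, 3.19 and 5.29 CPM in MC26, and 9.13, 13.4 and 18.8 CPM in M1B26. The groups did not overlap, and the M1B26 libraries were widely spread, with a coefficient of variation of 35.1%. The log2 fold change of M1B26 against CT was 0.91 (95% interval 0.36 to 1.46), which 82.9% of the other chromosome 17 genes did not reach. Without M1B26 replicate 3 it was 0.62. Against MC26 it was 1.81 (1.23 to 2.38).

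RARA, a retinoic acid receptor fused in acute promyelocytic leukaemia, lies at chr17:40309180-40357643 on the plus strand. It measured 17.8, 13.7 and 20.2 CPM in CT, 23.3, 22.0 and 20.9 CPM in MC26, and 26.8, 22.0 and 22.4 CPM in M1B26. Both transformed lines lay above CT and overlapped each other. Its log2 fold change in M1B26 against CT was 0.45 (95% interval 0.16 to 0.73), 0.03 below the median of the chromosome. Against MC26 it was 0.10 (-0.18 to 0.39), where 18% of the other chromosome 17 genes were lower.

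The 17q23 genes RPS6KB1 and PPM1D lay between their CT level and the shift of the chromosome. RPS6KB1 encodes the S6 kinase downstream of mTORC1 (chr17:59893046-59950574, plus strand). It measured 56.5, 62.6 and 56.4 CPM in CT, 52.99, 57.6 and 57.6 CPM in MC26, and 73.7, 70.5 and 72.1 CPM in M1B26. All M1B26 libraries were above the other 6, which overlapped. M1B26 exceeded CT by 0.30 on the log2 scale (95% interval 0.16 to 0.45), 0.17 below the median of the chromosome.

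PPM1D, a phosphatase that turns off DNA damage signalling (chr17:60600193-60666280, plus strand), measured 16.3, 17.8 and 16.4 CPM in CT, 14.02, 14.9 and 17.7 CPM in MC26, and 19.7, 19.9 and 19.2 CPM in M1B26. The M1B26 libraries were the highest and differed little from each other. The log2 fold change of M1B26 against CT was 0.22 (95% interval 0.02 to 0.43) and against MC26 it was 0.33 (0.13 to 0.54).

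**Figure D3:**
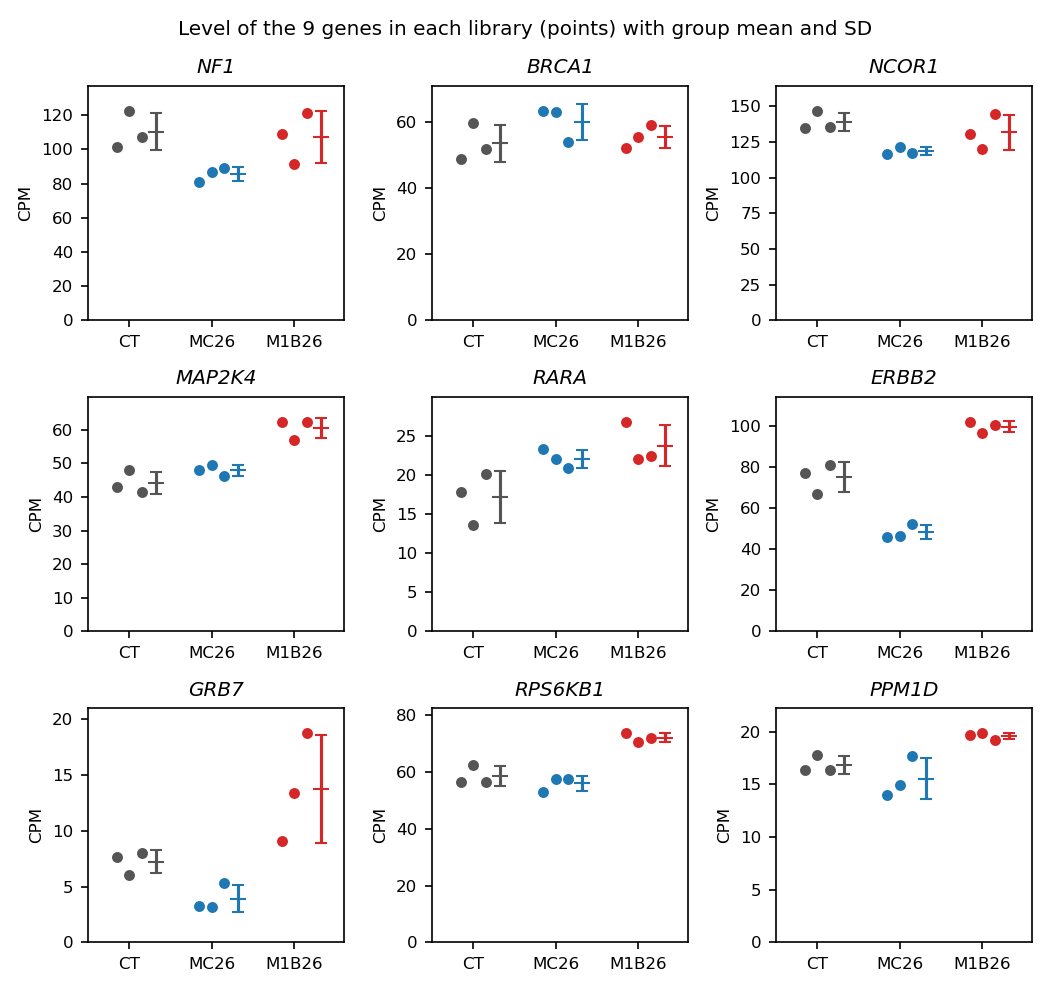
CPM of the 9 genes in each library (points) with the mean and SD of each group of 3 on axes that start at 0. ERBB2, GRB7, MAP2K4, RPS6KB1 and PPM1D are highest in all M1B26 libraries, ERBB2, GRB7, NF1 and NCOR1 are lowest in all MC26 libraries except that 1 M1B26 value of NCOR1 falls among them, and BRCA1 overlaps in every group.

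MC26 was compared with CT by a test, since the selection named only M1B26. The comparison shares the CT libraries and the estimate of spread with those of M1B26, and the genes were chosen with earlier results known. Of the 9 genes 0 were called higher and 4 lower, beside 18.8% of all tested genes called higher and 19.9% called lower. GRB7 changed by -0.89 on the log2 scale (edgeR, SE 0.26 and adjusted p 0.0208). ERBB2 fell by 0.64 on the log2 scale (edgeR, SE 0.08 and adjusted p 0.000167), from 74.8 ± 7.29 to 48.3 ± 3.44 CPM (SD, n = 3). NF1 fell by 0.37 (edgeR, SE 0.10 and adjusted p 0.0165) and NCOR1 by 0.23 (edgeR, SE 0.08 and adjusted p 0.0325). All 3 MC26 libraries were below all 3 CT libraries for these 4 genes, and above them for RARA, where 50.3% of all genes did not overlap in either direction. RARA had a log2 fold change of 0.34 (adjusted p 0.0567 by edgeR), and BRCA1, PPM1D, RPS6KB1 and MAP2K4 had values from -0.11 to 0.17 that did not pass the test. The median of the 9 genes was -0.11, against 0.00 for all tested genes.

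The calls other than ERBB2 depended on single libraries, and that of NCOR1 also on the filter. NF1 passed in 15 of 17 alternative analyses, GRB7 in 13 and NCOR1 in 9, while ERBB2 passed in all 17. NF1 lost its call without CT replicate 2 (adjusted p 0.0525 by edgeR) or MC26 replicate 1 (0.0631), and GRB7 lost its call without CT replicate 1 (0.0616), CT replicate 3 (0.0612), MC26 replicate 1 (0.0757) or MC26 replicate 2 (0.081). NCOR1 lost its call when any 1 of the CT or MC26 libraries, or M1B26 replicate 1, was left out, with adjusted p-values from 0.0511 to 0.0981 by edgeR. With no filter on low counts NCOR1 was not called either (adjusted p 0.0506 by edgeR). RARA passed as higher without CT replicate 3 (adjusted p 0.0177 by edgeR), with no filter (adjusted p 0.0133 by edgeR) and by DESeq2 (0.0311). Without CT replicate 2, BRCA1 (0.26, adjusted p 0.0388 by edgeR) and MAP2K4 (0.19, adjusted p 0.04 by edgeR) passed as higher.

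Between the transformed lines the order of the genes was different. In M1B26 against MC26, 6 of the 9 genes were called higher and 0 lower, beside 21.2% of all tested genes called higher and 18.4% lower, and the same number had libraries wholly above those of MC26, where 53.5% of all genes did not overlap in either direction. ERBB2 and GRB7 had intervals above the chromosome's median of 0.478, as both had been lower in MC26 than in CT. NF1, PPM1D, RPS6KB1 and MAP2K4 had intervals that held the median, with log2 fold changes from 0.33 to 0.36. BRCA1, RARA and NCOR1 had intervals below it. Among all 851 genes 28.4% lay below, 43.9% held the median and 27.6% lay above. M1B26 was the shared side of this comparison and of M1B26 against CT, so the pair of lists is given side by side only. MAP2K4 was in both lists of genes that held the median, but not against MC26 without CT replicate 2, without MC26 replicate 3 or with only the 6 libraries compared. Against genes of the same quartile of genomic length, PPM1D, RPS6KB1 and RARA held the median in both as well. By quartile of exonic length RARA did not hold it against MC26.

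Per kilobase of exon the order of the levels changed between the lines. In CT the level was 8.90 CPM per kilobase of exon (RPKM) for NCOR1, 7.72 for MAP2K4, 7.60 for RPS6KB1 and 7.25 for ERBB2, and the last 3 did not differ beyond their SDs of 0.46 to 0.71. BRCA1 at 3.79 and RARA at 3.63 RPKM did not differ beyond their SDs, and nor did GRB7 at 2.01 and PPM1D at 1.79 RPKM, with NF1 between the pairs at 2.68 RPKM. In MC26 ERBB2 was at 4.68 RPKM, within an SD of RARA at 4.66 RPKM. In M1B26 the order opened with MAP2K4 at 10.6, ERBB2 at 9.64 and RPS6KB1 at 9.37 RPKM, and NCOR1 came after them at 8.42 RPKM. GRB7 went from 1.09 RPKM, the lowest of the 9 genes in MC26, to 3.82 RPKM in M1B26, level with BRCA1 at 3.93 RPKM within their SDs. Exonic lengths joined all annotated transcripts, which lowers the level of genes such as NF1 with 41150 annotated exonic bases.

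The genes next to each member did not always share its value. In M1B26 against CT the median log2 fold change of the 10 tested genes on each side was 0.62 around NCOR1, 0.39 around BRCA1 and 0.28 around NF1, all above the values of those 3 genes. It was 0.60 around MAP2K4, 0.53 around RPS6KB1, 0.34 around PPM1D, 0.33 around GRB7, 0.27 around RARA and 0.25 around ERBB2. With 5 genes on each side it was 0.74 around GRB7, 0.52 around ERBB2 and 0.11 around RARA, so that ERBB2 at 0.41 lay above or below its neighbourhood by the width chosen. At that width the median around NF1 was 0.12, within the interval of NF1 from -0.27 to 0.19, and it was 0.30 around BRCA1 and 0.61 around NCOR1. NCOR1 at -0.08 lay between TTC19, a mitochondrial complex III factor, at 0.21 and PIGL, an enzyme of GPI anchor synthesis, at 0.82. RPS6KB1 at 0.30 lay between TUBD1, a tubulin of the centriole, at 0.97 and RNFT1 at 0.64. MAP2K4 at 0.46 lay between ZNF18 at 0.55 and ELAC2, a tRNA processing enzyme 847.8 kb away, at 0.46. The 10 tested genes on each side of MAP2K4 ran from -5.376 to 1.865, and 16 of these 20 were above 0.

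The genes next to ERBB2 and GRB7 were listed with their own values, and no difference between neighbours was tested. MIEN1, between them, had a log2 fold change of 0.07 in MC26 against CT, where ERBB2 and GRB7 were lower, and 0.96 in M1B26 against CT. PGAP3, which modifies GPI anchors on the other side of ERBB2, was at 0.12 and -0.02 in these comparisons. GSDMB, a gasdermin and the next tested gene after GRB7, was at -0.75 and 0.62, but at a mean of 0.86 CPM in CT its SE was 0.28 and 0.25. Near RARA, CDC6, which loads the replicative helicase, was at 0.64 and 0.50, while the antisense gene RARA-AS1 was at -0.29 and 0.08 with SEs of 0.26 and 0.25. Beside PPM1D, APPBP2 was at -0.37 and 0.29 and BCAS3 at -0.52 and 0.18. RNF135, a ubiquitin ligase before NF1, was at -0.11 and 0.08 and EVI2B, inside an NF1 intron, at 0.42 and -0.14. NBR2, next to BRCA1, was at -0.48 and -0.16.

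Some of these genes overlap on opposite strands, and the strand setting of the counting is not given. MIEN1 held 45.4% as many counts as ERBB2, TTC19 29.4% as many as NCOR1, EVI2B 15.7% as many as NF1 and PGAP3 9.75% as many as ERBB2. EVI2A held 7.11% as many as NF1, PIGL 6.72% as many as NCOR1 and NBR2 6.47% as many as BRCA1. Reads of these pairs cannot be told apart with certainty. AK4P1, a processed pseudogene inside NF1 on the same strand, held 7.22% as many counts as NF1, and strand cannot separate that pair. Pseudogenes named after NF1 held 5 counts and that of MAP2K4 held 26 counts in all libraries, against 44286 and 21819 for the genes themselves.

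Gene length moved with the size of the shift. Among chromosome 17 genes the median log2 fold change of M1B26 against CT was 0.63, 0.55, 0.40 and 0.31 from the shortest to the longest quartile of genomic length, and among genes of other chromosomes with lengths in the same ranges it was 0.16, 0.08, -0.01 and -0.12. Of the 9 cancer genes 7 were in the longest quartile, ERBB2 in the third and GRB7 in the second. Against chromosome 17 genes of their own quartile, a reference chosen after the data were seen, the intervals of 6 genes held the median, with RPS6KB1 and PPM1D added to the 4 named above. NF1, BRCA1 and NCOR1 lay below it. Against genes of other chromosomes in the same quartile the log2 fold change of NF1 was 0.08 higher, that of NCOR1 0.04 higher and that of BRCA1 0.18 higher, whereas MAP2K4 was 0.58 and RARA 0.57 higher. The part of length in these values was not tested.

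**Figure D4:**
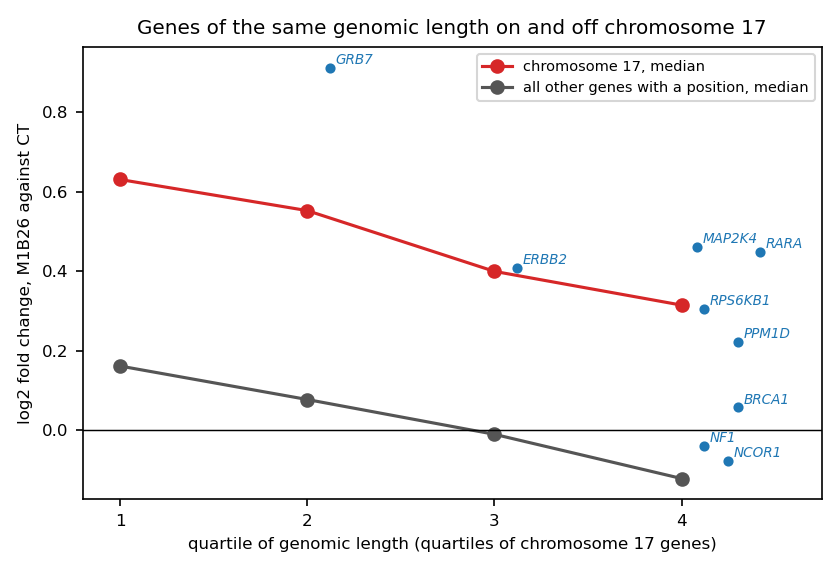
Median log2 fold change of M1B26 against CT by quartile of genomic length for genes of chromosome 17 (red) and of other chromosomes (grey), with the 9 cancer genes (blue) at their own quartile, offset sideways for legibility. Both lines fall with length and stay apart, and NF1, NCOR1 and BRCA1 lie nearer to the grey line while MAP2K4 and RARA lie above the red line.

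Other cancer genes of the chromosome were counted from a fixed list. Of 48 tested, 33 were called higher and 1 lower in M1B26 against CT, with a median of 0.456, beside 64.2% called higher and a median of 0.475 for the whole chromosome. The highest with at least 5 CPM were NME1, a nucleoside diphosphate kinase, at 1.19, the collagen COL1A1 at 0.98 and the prohibitin PHB at 0.92. The lowest at that level were the ubiquitin ligase RNF213 at -0.36, the actin-binding LASP1 at -0.13 and the topoisomerase TOP2A at -0.06. In MC26 against CT, 14 were called higher and 10 lower, with a median of 0.11. Over the whole chromosome 19.4% were called higher and 22.9% lower there, with a median of 0.00.

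Neighbours in and around the segments known for amplification were counted in the same way. Of 20 tested neighbours of ERBB2, from 17q12 into 17q21, 10 were called higher and 1 lower in M1B26 against CT, with a median of 0.34. IGFBP4, which binds insulin-like growth factors, was highest at 1.92, followed by the lipid transporter STARD3 at 1.01, and the Mediator subunit MED1 was the lowest at -0.34, among neighbours with a mean of at least 5 CPM. The group means of IGFBP4 were 4.86 CPM in CT, 2.05 CPM in MC26 and 18.5 CPM in M1B26. Of 19 tested neighbours on 17q23, 15 were called higher and 1 lower, with a median of 0.38. The peptidyl-tRNA hydrolase PTRH2 was at 1.14, TUBD1 at 0.97 and the autophagy gene VMP1 at 0.92, and the Mediator subunit MED13 was lowest at 0.08, among neighbours with a mean of at least 5 CPM. The neighbour called lower was the phosphatase PPM1E, below that level at 0.400 CPM in CT and named here after its values were seen. The neighbours of RPS6KB1 and PPM1D included genes at more than the value of either.

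Partners of the 9 genes were split by chromosome. Of 18 tested partners on chromosome 17, 12 were called higher and 1 lower in M1B26 against CT, with a median of 0.44. The shares over the whole chromosome were 64.2% and 6.70%. GRB2, the adaptor that links ERBB2 to RAS, was at 0.70, and PRKCA, a protein kinase C, was lowest of those with at least 5 CPM at -0.93. Partners on other chromosomes had medians from -0.19 to 0.07 over the 8 lists.

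The counts for partners on other chromosomes stand beside 25.2% of all tested genes called higher and 23.7% called lower in M1B26 against CT. Of 12 RAS and NF1 partners 1 was higher and 5 lower in M1B26 against CT. HRAS rose by 0.68 (edgeR, SE 0.09 and adjusted p 0.000124), and the RAS GTPase activator RASAL2 had a log2 fold change of -0.54 (adjusted p 0.00246 by edgeR). In MC26 against CT, HRAS was also higher, by 0.69 (adjusted p 0.000185 by edgeR), and RASAL2 at 0.15 was not called. Of 12 ERBB2 and GRB7 partners 0 were higher and 5 lower. ERBB3, which pairs with HER2, had a log2 fold change of -1.25 (edgeR, SE 0.20 and adjusted p 0.000497), the mucin MUC1 -1.68 (edgeR, SE 0.27 and adjusted p 0.000433) and EGFR -0.48 (edgeR, SE 0.09 and adjusted p 0.0012). In MC26 against CT, 2 of these 12 were higher and 2 lower, beside 18.8% and 19.9% of all tested genes. ERBB3 was at -1.63 there (edgeR, SE 0.21 and adjusted p 0.000164). MUC1 at 0.02 and EGFR at 0.04 were not called in MC26.

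Partners of the kinases and of the DNA damage genes moved in both directions. Of 12 RPS6KB1 and mTORC1 partners 2 were higher and 5 lower in M1B26 against CT. The S6 kinase substrate RPS6 rose by 0.60 (adjusted p 5.47e-05 by edgeR), while PDCD4, a translation repressor degraded after S6 kinase phosphorylation, was at -1.15 (adjusted p 5.14e-05 by edgeR) and MTOR at -0.40 (adjusted p 0.0023 by edgeR). Of 11 JNK and p38 partners of MAP2K4, 1 was higher and 4 lower, with the kinase MAP3K4 at -0.51 (adjusted p 0.000141 by edgeR) and MAP3K5 at -0.49 (adjusted p 0.00209 by edgeR). Of 10 PPM1D partners 4 were higher and 2 lower. GADD45A, a damage-induced growth arrest gene, rose by 0.68 (adjusted p 0.00272 by edgeR) and the cell cycle inhibitor CDKN1A by 0.56 (adjusted p 0.000986 by edgeR), and the damage kinase ATM was at -0.65 (adjusted p 0.000588 by edgeR). Of 13 BRCA1 partners 2 were higher and 2 lower, with BRCA2 at -0.37 (adjusted p 0.0476 by edgeR) and BABAM1, a subunit of the BRCA1-A complex, at 0.34 (adjusted p 0.00295 by edgeR). In MC26 against CT, GADD45A at 0.87, CDKN1A at 0.44, BABAM1 at 0.26 and PDCD4 at -0.76 were called in the same direction. MAP3K5 at 0.33 was called in the other direction there, and RPS6, MTOR, MAP3K4, ATM and BRCA2 were not called.

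Retinoic acid genes and partners of NCOR1 completed the lists. Of 10 tested genes of the retinoic acid list 3 were higher and 2 lower in M1B26 against CT. The retinoic acid carrier CRABP2 rose by 1.30 (edgeR, SE 0.24 and adjusted p 0.00113), the retinal reductase DHRS3 by 1.24 (edgeR, SE 0.24 and adjusted p 0.00142) and ALDH1A3, which makes retinoic acid, by 0.80 (edgeR, SE 0.27 and adjusted p 0.0286). The means of CRABP2 were low, at 2.59, 3.43 and 6.45 CPM in CT, MC26 and M1B26. DHRS3 was also higher in MC26, by 0.87 (edgeR, SE 0.24 and adjusted p 0.0141). Of 9 tested NCOR1 partners 1 was higher and 4 lower in M1B26, with the repressors ZBTB16 at -1.28 (edgeR, SE 0.20 and adjusted p 0.000352) and BCL6 at -0.66 (edgeR, SE 0.23 and adjusted p 0.0375). In MC26 against CT, ZBTB16 at -0.75 and BCL6 at -0.74 were also called lower, and CRABP2 and ALDH1A3 were not called.

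The patterns over the 9 libraries were compared by Pearson correlation of log2 CPM, as a description in which the 3 groups set most of the variation. NF1 and NCOR1, on different arms, had r = 0.957, and NCOR1 was the gene most like NF1 among all tested genes. ERBB2 and GRB7 had r = 0.931. RPS6KB1 had r = 0.89 with MAP2K4 and 0.896 with PPM1D. BRCA1 was below 0 with ERBB2 (r = -0.538), GRB7 (r = -0.423) and PPM1D (r = -0.389).

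The gene most like each of the others was mostly not a neighbour. ERBB2 was most like SGSM2 (r = 0.995), a RAB regulator on 17p, and RPS6KB1 was most like CCDC47 (r = 0.989), a membrane protein insertion factor on 17q. The nearest patterns to GRB7, PPM1D, MAP2K4, RARA and BRCA1 lay on other chromosomes, in SH2B2 (r = 0.982), ARMC10 (r = 0.971), TRIM34 (r = 0.986), GIPC1 (r = 0.982) and SLC25A24 (r = 0.978). For NCOR1 it was AP002360.2 (r = 0.96). Among the 50 genes most like a member, 13 were on chromosome 17 for GRB7, 12 for MAP2K4, 10 each for ERBB2 and RPS6KB1, 6 for PPM1D, 4 each for NF1 and RARA, 1 for NCOR1 and 0 for BRCA1, where 5.42% of all tested genes lie on the chromosome. The M1B26 libraries behind the selection are part of these correlations, so nothing is read from these counts.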

How the data were processed

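Poly-A RNA of 9 cultures (3 each of CT, MC26 and M1B26, grouped by sample title) was sequenced in pairs. Each value deposited was an unnormalised read count for a symbol, made by the authors on GRCh38 (STAR 2.7.3a and Salmon 1.1.0 in the submitters' processing notes). The counts are whole numbers and include non-coding genes, and the counter, its strand setting and its handling of multi-mapped reads are not given in the sources used here. The study's methods name paired tests for data of the MCF10A models in general and none for these counts.

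Counts were fitted in R 4.3.3 with edgeR 4.0.16 (filterByExpr with a minimum count of 10, TMM factors from 0.969 to 1.07, quasi-likelihood test, 3 groups, 9 libraries). The p-values are 2-sided and adjusted by Benjamini-Hochberg over 15717 genes, and a gene is called at an adjusted p under 0.05. The SE is the absolute log2 fold change over the square root of F, and 95% intervals use the t distribution. CPM used TMM-scaled library sizes, and 1 count stood for 0.0122 to 0.0437 CPM. The biological coefficient of variation was 10.4%. The fit was tested on simulated data, where the recovery target was missed over all changed genes and met for genes of at least 5 CPM, a limit set after the miss. The limit applied to the mean over all 9 libraries. GRB7 had a group mean under 5 CPM only in MC26, and CRABP2 lies below the limit. Positions and exonic lengths came from GENCODE v44 (37424 of 60199 symbols matched, 501 through an older symbol, holding 99.3% of counts), with the arms parted at 25 Mb. The chromosome median beside a gene leaves that gene out.

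The members and lists were chosen with earlier results of these data known. Named genes were the members, the nearest tested neighbour on each side, the gene most correlated with each, at most 3 called genes with the largest change per partner list and comparison, and at most 3 highest and 3 lowest of each chromosome 17 list with a mean of at least 5 CPM. The value of 1 neighbour is not reported here. HDAC5 was left out of the list for other chromosomes because it lies on chromosome 17, and PHB1 was found as PHB. Other settings were total counts, RLE factors or TMM without chromosome 17 as scaling, the tool DESeq2 1.42.0, a filter at a mean of 50 counts or none, only the 6 libraries compared, a replicate block, an adjusted p under 0.01, leaving out each library, and windows of 5 and 20 genes. References by length quartile or at 5 CPM or more were chosen after seeing the data.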

Additional observations from a re-analysis of the deposited data

Results flagged for a closer look

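For 3 genes every MC26 library lay below the CT mean and every M1B26 library above it. ERBB2 had log2 fold changes against CT of -0.64 in MC26 and 0.41 in M1B26. GRB7 had -0.89 and 0.91. RPS6KB1 had -0.06 and 0.3, and the MC26 libraries overlapped those of CT. These opposite directions were not tested as a difference of their own, the M1B26 side was part of the selection, and both comparisons share the CT libraries.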

How the results depend on the processing

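The median log2 fold change of chromosome 17 in M1B26 against CT was 0.382 with total counts, which lowered the median of genes elsewhere to -0.11, so the distance between them was kept. With an adjusted p under 0.01 the called members were 1 in MC26 against CT (ERBB2) and 3 in M1B26 against CT (ERBB2, RPS6KB1 and MAP2K4). When each library was left out in turn, the members called in MC26 against CT ranged from 1 to 4, the lowest without MC26 replicate 1, with 2 without CT replicate 1 or MC26 replicate 2. The members whose interval held the chromosome median in M1B26 against MC26 ranged from 2 to 5, the lowest without CT replicate 2 or MC26 replicate 1. The cause was not tested. No sign of a called member reversed under the alternatives run, and total counts moved RPS6KB1, MAP2K4 and NCOR1 to 0.21, 0.36 and -0.17 in M1B26 against CT. A replicate block called 5 members in MC26 against CT, 5 in M1B26 against CT and 6 between the transformed lines, and added RARA in MC26 (adjusted p 0.0425 by edgeR). Libraries of the same number in different lines had deviations correlated from -0.162 to 0.3, and those of different numbers from -0.272 to 0.268. With 3 libraries a line these values cannot show whether the numbers pair cultures. Of 54 neighbourhood medians over 5 or 20 genes a side, 34 were within 0.1 of those over 10. With 3 cultures a line and no given batch, line and batch cannot be told apart, GRB7 and RARA had the lowest precision, and intervals cover the spread between these cultures only.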
